A study of Mus musculus with 67 samples.

Results

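The 2401 highest-signal bins of the autosomes in mouse embryos of the 8-cell stage are the stretches of DNA that gave the most reads in control cells. Among 12005 autosomal bins of 200 kb with a value in all 20 control cells, they were selected on their median over those cells, as the highest 20%. In all, 12274 autosomal bins and 13103 bins with the X chromosome were listed. Read density along the chromosomes of single blastomeres, the cells of an early embryo, was measured by scRepli-seq, which amplifies the DNA of a cell and reads it sparsely. The values are log2 ratios to the median of the same cell, so a value of 1 would be a doubling over that median.

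The cells came from BDF1 embryos cultured in CZB medium. Embryos at the 4-cell stage were kept with aphidicolin at 75 ng/ml or with the solvent DMSO alone, and blastomeres were isolated once 8 cells had formed. The DMSO group held 20 cells from 3 embryos (4, 8 and 8 cells). The Aphidicolin group held 47 cells from 6 embryos, with 7 cells in Aphidicolin 6 and 8 in each of the others. All cells share 1 collection window, which is labelled G1 to early S, and 1 strain label, which does not say whether the embryos or their parents were hybrids. Cells of 1 embryo share their source, so the embryo was the replicate, and all p-values measure the spread between these few embryos.

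Depth, in reads recovered from the values, ran from 1.47 to 2.83 M over the control cells, with a median of 2.26 M. Treated cells had 0.739 to 2.65 M, with a median of 2.01 M. The counting error of 1 bin was 0.05 on the log2 scale at the median depth and 0.09 in the shallowest cell, with no allowance for amplification, whose reads are copies of fewer molecules. Relative to the autosomes, the X chromosome of the median cell was at -0.25 under DMSO and at -1.03 under Aphidicolin. X number and treatment therefore cannot be told apart in a comparison of these embryos.

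During S phase the genome is copied in a set order. Domains rich in active genes usually start early, and in a cell caught in S phase they are present in more copies than domains still to be copied, which gives them more reads. Aphidicolin inhibits the replicative DNA polymerases and slows replication forks, and at low doses it is known for exposing fragile sites, regions that break when their replication is not finished. Whether the highest-signal bins replicate early in these embryos could not be checked here, since no separate measure of replication timing was among the data. The parts of replication, amplification and mappability in their signal were not tested, and the bins are called by their signal.

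The highest-signal bins lay in blocks. They formed 377 runs of neighbouring bins, of which 65 held a single bin, and the median run was 0.8 Mb long. The 188 runs of at least 1 Mb held 82.5% of the highest-signal bins, and the 13 runs of at least 5 Mb held 16.7%. Each bin value covers a window of 1 Mb that overlaps the windows of its neighbours, so neighbouring bins are not independent and short runs carry little more than 1 measurement. Median values in DMSO cells ran from 0.36 to 0.72 over the highest-signal bins, with a median of 0.44, against a median of -0.12 over the other 9604 bins. These values chose the bins and are a description.

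The threshold fell in a dense part of the ranking. The 5 bins just inside lay on chromosomes 8, 2, 12, 17 and 1 at DMSO medians between 0.355172 and 0.355831. The 5 bins just outside lay on chromosomes 13, 19, 6, 17 and 14 at between 0.354774 and 0.355036. A bin at the threshold had 1.28 times the reads of the cell median.

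The longest run spanned 8 Mb of chromosome 5, at chr5:29800001-37800000 in mm9. Its mean over bins was between 0.23 and 0.64 in the 20 DMSO cells, all above 0, and it was above 0 in 46 of 47 Aphidicolin cells, at a median of 0.36. The Aphidicolin embryo medians of this run averaged 0.35 ± 0.10 (SD, n = 6), and those of DMSO embryos 0.47 ± 0.04 (SD, n = 3). The groups overlapped, since the highest Aphidicolin embryo was at 0.47.

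The next runs in length spanned 7.8 Mb at chr4:131400001-139200000, 7.6 Mb at chr15:78600001-86200000 and 7.2 Mb at chr17:23800001-31000000. Their Aphidicolin embryo values averaged 0.34 ± 0.21, 0.45 ± 0.12 and 0.41 ± 0.19 (SD, n = 6 each), below the DMSO means of 0.49, 0.55 and 0.55 by less than the spread between Aphidicolin embryos in each case. The run on chromosome 4 was the only one of these 3 with an Aphidicolin embryo below 0, at -0.01. The other 4 of the 8 longest runs were chr8:122000001-128200000, chr4:40400001-46400000, chr2:28200001-34000000 and chr15:97400001-103000000, at Aphidicolin means between 0.37 and 0.49.

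By height rather than length, the run chr4:115600001-119400000 held the bin with the highest DMSO median of all, 0.72. This run averaged 0.54 ± 0.09 over DMSO embryos (SD, n = 3), and over Aphidicolin embryos 0.47 ± 0.20 (SD, n = 6), so its level in the treated embryos lay within their spread of the control level. Next in height were chr1:157200001-159400000 with a peak of 0.69, chr11:100000001-105000000 with a peak of 0.69 and chr8:25800001-28200000 with a peak of 0.67. The other 4 of the 8 highest were both long runs of chromosome 15, the long run of chromosome 17 and chr8:71800001-75200000.

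The bins were spread unevenly over the chromosomes. Chromosome 11 stood apart, with 248 of its 594 ranked bins, or 41.8%, among the highest-signal bins. Chromosomes 5 and 8 followed with 28.9% and 27.5%. Together these 3 chromosomes held 26.6% of the highest-signal bins and 16.4% of the ranked bins. At the other end, chromosome 3 had 7.93%, chromosome 13 had 9.73% and chromosome 6 had 11.1%, and these 3 held 8.33% of the highest-signal bins against 17.5% of the ranked bins. In all, 10 of the 19 autosomes lay above the overall share of 20%.

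**Figure D1:**
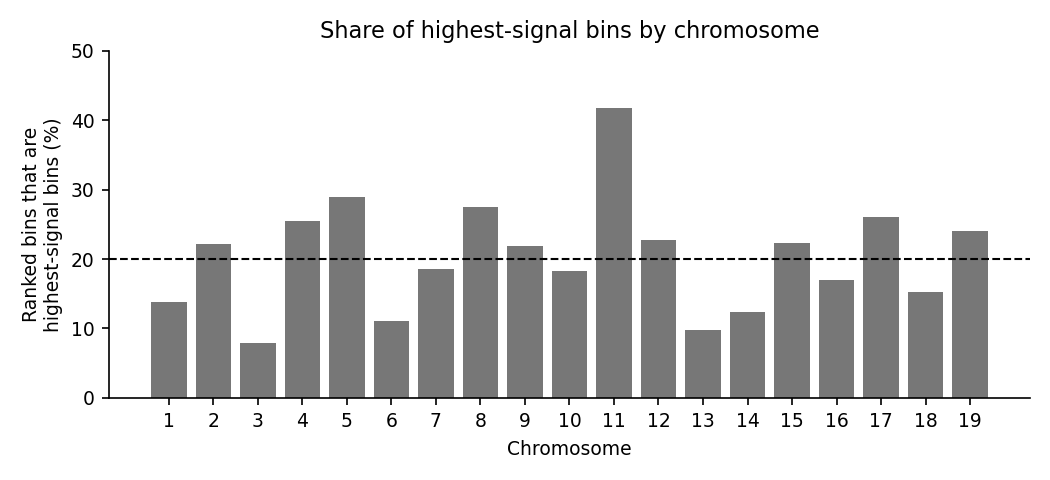
Share of the ranked bins of each autosome (x axis, chromosome number) that are highest-signal bins (y axis, percent); the dashed line marks the overall share of 20%. Chromosome 11 is at 41.8%, while chromosomes 3, 13 and 6 are the lowest, at 7.93%, 9.73% and 11.1%.

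Along the chromosomes the share rose towards the far end of the numbering. The mouse autosomes carry their centromere at the start of the sequence numbering. With each chromosome cut into 5 equal stretches from its start, the share of highest-signal bins was 17.4%, 14.05%, 16.6%, 22.2% and 29.6%. In the last 10 Mb of the chromosomes the share was 30.1%, against 16.1% in the first 10 Mb with ranked bins and 19.4% elsewhere. These shares describe where the rule placed its bins.

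In DMSO cells the highest-signal bins stood above the other bins in every cell. The median of the highest-signal bins minus the median of the other bins was between 0.38 and 0.78 over the 20 cells. Averaged per embryo, it was 0.65 in DMSO 1, 0.53 in DMSO 2 and 0.60 in DMSO 3, a mean of 0.59 ± 0.06 (SD, n = 3), or 1.51 times the reads of the other bins. The ranking chose the bins for this difference, so it carries no test.

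The Aphidicolin cells had no part in the choice, and the same bins were high in them. The difference was 0.42 in Aphidicolin 1, 0.46 in Aphidicolin 2 and 0.62 in Aphidicolin 3. It was 0.57 in Aphidicolin 4, 0.35 in Aphidicolin 5 and 0.25 in Aphidicolin 6. All 6 embryos were above 0, at a mean of 0.44 ± 0.14 (SD, n = 6), or 1.36 times the reads of the other bins. The exact two-sided sign-flip permutation test over the 6 embryos gave p = 0.03125, the smallest that 6 embryos allow, and 0.1875 after Benjamini-Hochberg adjustment over 6 measures. With this adjustment a value under 0.05 would need at least 4 of the 6 measures to reach the smallest p.

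The treated embryos differed among themselves and within themselves. Aphidicolin 3 and Aphidicolin 4 overlapped the DMSO embryos, and none of their cells fell below the lowest DMSO cell. The cells of Aphidicolin 1 ran from 0.08 to 0.69 and those of Aphidicolin 2 from 0.19 to 0.79, with 4 cells of each below the lowest DMSO cell. In Aphidicolin 5, 6 of 8 cells lay below it, and in Aphidicolin 6, 5 of 7 cells did.

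Over all treated cells, 19 of 47 lay below the lowest DMSO cell, 14 were under 0.3 and 4 were under 0.1. The lowest was cell 73 of Aphidicolin 6 at -0.07, in which the highest-signal bins were no higher than the rest. The highest was cell 50 of Aphidicolin 3 at 0.82, above every DMSO cell. The shallowest cell, cell 34 of Aphidicolin 1 with 0.739 M reads, was at 0.63, and cell 27 of the same embryo, with 2.40 M reads, was at 0.08; the part of depth in these levels was not tested.

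**Figure D2:**
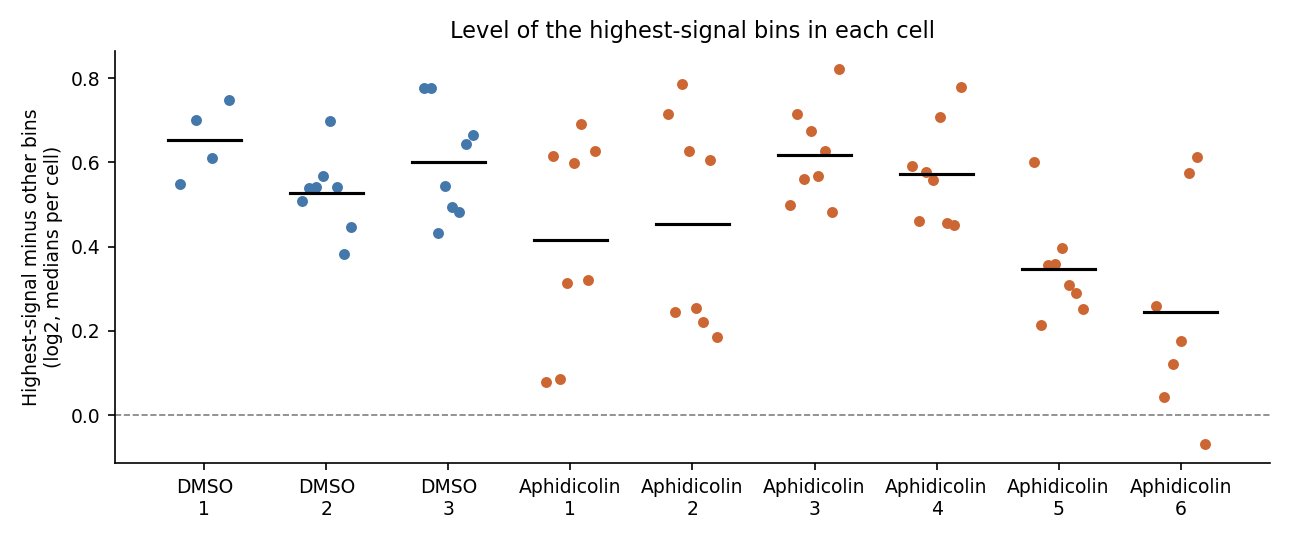
Median of the highest-signal bins minus median of the other ranked bins (y axis, log2) in each cell, by embryo (x axis); points are cells, black bars are embryo means, blue is DMSO and orange Aphidicolin. DMSO cells lie between 0.38 and 0.78, while 19 of 47 Aphidicolin cells lie below 0.38.

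To set the treatments side by side without the advantage of the choice, the bins were picked again without each DMSO embryo in turn, and each DMSO embryo was measured only on bins picked without it. The held-out level was 0.65, 0.51 and 0.59 in the 3 DMSO embryos, a mean of 0.58 ± 0.07 (SD, n = 3). The 6 Aphidicolin embryos on the same picks were at a mean of 0.44 ± 0.14 (SD, n = 6), and 4 of them lay below all DMSO embryos. The difference was -0.14. An exact permutation test, two-sided over the 84 splits of 9 embryos, gave p = 0.155, where the smallest possible is 0.0119. The difference was about as large as the SD of the Aphidicolin embryos and did not pass the test.

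The highest-signal bins are the top of a profile, and the cells differed in how that top and the bottom were placed around the middle. The upper step is the median of the highest-signal bins minus that of the middle bins, those in neither the highest nor the lowest 20% of the ranking. The lower step is the median of the middle bins minus that of the lowest 20%. The upper step was 0.45 ± 0.07 and the lower step 0.55 ± 0.14 over DMSO embryos (SD, n = 3). Over Aphidicolin embryos they were 0.36 ± 0.11 and 0.32 ± 0.19 (SD, n = 6). These values are a description, chosen after the cells were seen.

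The steps did not move together from cell to cell. Cells with both steps near 0, such as cells 68 and 73 of Aphidicolin 6, had upper steps of 0.04 and -0.05 and lower steps of 0.04 and -0.06. Other cells had a high upper step and a smaller lower one, such as cell 37 of Aphidicolin 2, at 0.67 and 0.30. At the far side were cells with a small upper step and a large lower one, such as cell 62 of Aphidicolin 5, at 0.23 and 0.69.

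The upper step exceeded the lower in 30 of 47 cells under Aphidicolin and in 7 of 20 under DMSO. By embryo this held in all 8 cells of Aphidicolin 2, in 7 of 8 of Aphidicolin 3, in 6 of 8 of Aphidicolin 1 and in 6 of 7 of Aphidicolin 6. It held in 3 of 8 cells of Aphidicolin 4 and in none of the 8 cells of Aphidicolin 5. Among DMSO embryos it held in 2 of 4 cells of DMSO 1, in 0 of 8 of DMSO 2 and in 5 of 8 of DMSO 3. Aphidicolin 5 and Aphidicolin 6 thus had the lowest levels of highest-signal bins by different shapes. In Aphidicolin 5 the upper step was 0.24 and the lower 0.58, and in Aphidicolin 6 they were 0.22 and 0.09.

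**Figure D3:**
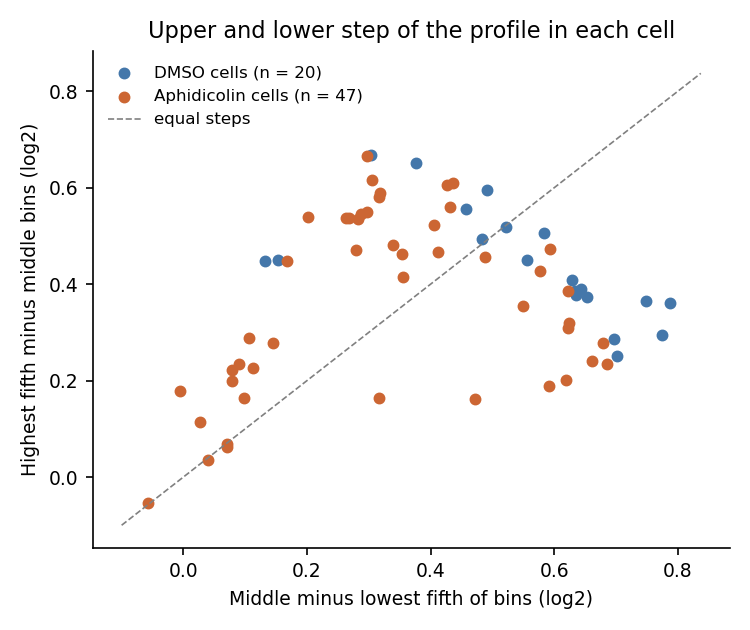
Upper step of the profile (y axis, highest-signal minus middle bins, log2) against the lower step (x axis, middle minus lowest bins, log2) in each of 20 DMSO and 47 Aphidicolin cells; on the dashed line both are equal. Cells with both steps near 0 are Aphidicolin cells. Upper steps reach 0.67 at lower steps of 0.30, in cell 20 of DMSO 3 and cell 37 of Aphidicolin 2. They are smaller at the largest lower steps, such as 0.23 in cell 62 of Aphidicolin 5 and 0.36 in cell 11 of DMSO 2. The cells do not follow a single curve. At lower steps of 0.47 and 0.49, cell 66 of Aphidicolin 5 has an upper step of 0.16 and cell 10 of DMSO 1 has 0.59.

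The order of bins was largely shared between the treatments. The level of a bin over Aphidicolin embryos, the median of the embryo medians, correlated with its DMSO median at r = 0.92 over 12005 bins and at r = 0.589 over the 2401 highest-signal bins. These are correlations across overlapping bins that share libraries and base composition, and bins are not independent replicates. The Aphidicolin level of the highest-signal bins had a median of 0.36 and a range from -0.05 to 0.74, against a median of -0.04 over the other bins. It was above 0 for 2400 of the 2401, and for 4144 of the 9604 other bins (43.1%).

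When each embryo ranked the bins by its own cells, 85.2%, 84.01% and 87.5% of the highest-signal bins were in the top 20% of DMSO 1, 2 and 3, which had taken part in the choice. In Aphidicolin 1 to 6 the shares were 71.8%, 73.3%, 77.9%, 80.01%, 72.1% and 57.1%. The lowest overlap was in Aphidicolin 6, which also had the lowest level. In the top 20% of all 6 Aphidicolin embryos were 729 of the bins (30.4%), and 52 bins (2.17%) were in the top 20% of none. The matching shares of the other bins were not determined, so nothing is read from these last counts.

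Bin by bin, limma with Benjamini-Hochberg adjustment over all 12005 ranked bins called 2353 of the 2401 highest-signal bins (98.0%) above the cell median in the 6 Aphidicolin embryos. Over all ranked bins 36.3% were called higher, and over the other bins 20.9%. Of the highest-signal bins 0 were called lower, while over all ranked bins 26.9% were. At an unadjusted p under 0.05 the lower calls were 0 of the highest-signal bins and 29.6% of all ranked bins. With means in place of medians over the cells of an embryo, limma called 1329 of the highest-signal bins higher (55.4%) and 0 lower, against 16.5% higher and 28.7% lower of all ranked bins.

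In the comparison of Aphidicolin with DMSO embryos limma called 0 of the highest-signal bins in either direction, as over all ranked bins (0.0% higher and 0.0% lower), with a lowest adjusted p of 0.0972. At an unadjusted p under 0.05, 294 of the highest-signal bins (12.2%) were lower and 0 higher, against 4.63% lower and 19.9% higher of all ranked bins. The median difference was -0.11 over the highest-signal bins and 0.03 over all bins, and 91.4% of the highest-signal bins were below 0 against 44.5% of all. The DMSO values that chose the bins enter this contrast, so nothing is read from these counts. Without Aphidicolin 5 limma called 19 of the highest-signal bins (0.791%) lower and 0 higher, against 0.408% lower and 9.7% higher of all ranked bins.

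Whether the pattern held on each chromosome depended on how the cells of an embryo were summarised. With the median over cells as the value of an embryo, highest-signal bins were above the other bins of the same chromosome in all 6 Aphidicolin embryos on all 19 autosomes. The chromosome means ran from 0.33 on chromosome 13 to 0.49 on chromosome 15. With the mean over cells, all 6 embryos were above 0 on 14 chromosomes, the exceptions being 2, 8, 9, 12 and 18. The median was preferred after these means had been seen. On chromosome 11, the richest in highest-signal bins, the difference was 0.45 ± 0.20 over the treated embryos (SD, n = 6) and 0.57 ± 0.08 over the control embryos (SD, n = 3).

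Across the edges of the runs of at least 1 Mb the level rose over about the width of 1 window. In DMSO embryos it was 0.04 ± 0.03 at 0.9 Mb outside the edge, 0.41 ± 0.05 at 0.1 Mb inside and 0.48 ± 0.08 at 0.5 Mb inside (SD, n = 3). In Aphidicolin embryos it was 0.05 ± 0.03, 0.30 ± 0.11 and 0.37 ± 0.12 at the same places (SD, n = 6). Outside the runs the treatments overlapped within their spread, and inside the runs the Aphidicolin mean lay below the DMSO mean, with overlapping spreads. The runs were defined by high values in these DMSO cells, which favours that order, so it is a description only. The width of the rise is set in part by the overlap of the windows.

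**Figure D4:**
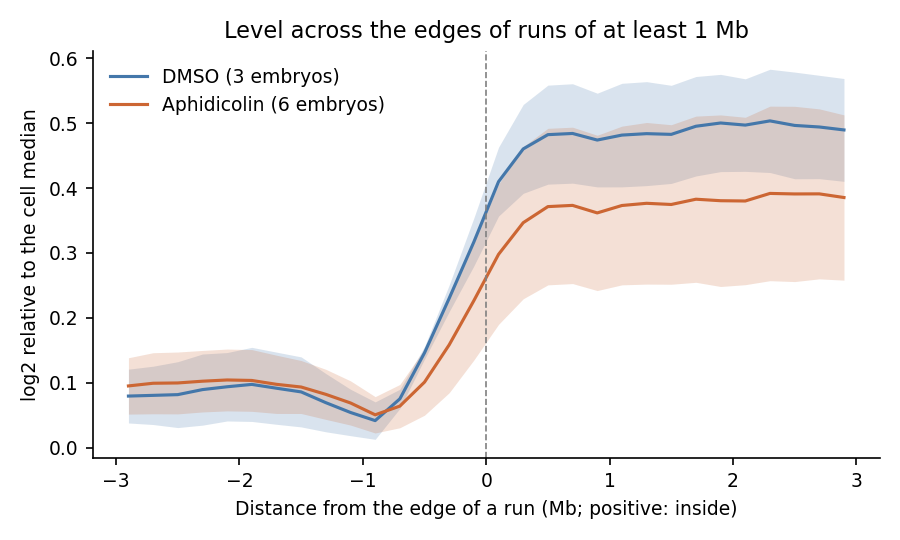
Mean log2 level relative to the cell median (y axis) by distance from the edge of runs of at least 1 Mb (x axis, Mb, positive inside), for 3 DMSO and 6 Aphidicolin embryos; bands are 1 SD over embryos. At 0.5 Mb inside, DMSO is at 0.48 and Aphidicolin at 0.37, with overlapping bands, while at 0.9 Mb outside they are at 0.04 and 0.05; the DMSO values chose the runs.

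Among the 188 runs of at least 1 Mb, the Aphidicolin mean was above 0 in each, from 0.14 to 0.53 with a median of 0.36, and in 173 runs all 6 embryos were above 0. It lay below the DMSO mean in 180 runs, a direction that the choice on DMSO values favours. Ranked by the median over the 6 embryos instead of the mean, the highest Aphidicolin levels among these runs were at chr8:71800001-75200000 (0.60), chr19:2800001-7400000 (0.57) and chr7:16200001-17400000 (0.56). They were followed by chr16:20200001-21200000 (0.56) and chr5:23400001-24400000 (0.51). The runs on chromosomes 16 and 5 were among the 8 in which the Aphidicolin mean was not below the DMSO mean.

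By the same median the lowest Aphidicolin levels were at chr2:179600001-180600000 (0.11), chr3:100600001-101600000 (0.14) and chr18:74000001-75000000 (0.17). Next were chr2:164400001-168600000 (0.17) and chr18:77000001-78000000 (0.18). In the run at the end of chromosome 2 the DMSO embryos averaged 0.44 ± 0.08 (SD, n = 3) and the Aphidicolin embryos 0.14 ± 0.13 (SD, n = 6), and the highest Aphidicolin embryo was at 0.37. A called loss reached into it in 12 of 47 Aphidicolin cells and a called gain in 8, and into the longest run on chromosome 5 in 1 cell each; the part of these calls in the low level was not tested.

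The spread over cells was not larger in the highest-signal bins of the control. The SD over the 20 DMSO cells had a median of 0.184 over the highest-signal bins, 0.202 over the other bins and 0.247 over the 2401 lowest-signal bins. The same DMSO values ranked the bins, so these SDs are a description with no test. An SD above 0.5 was found in 7 highest-signal bins (0.292%) and in 48 of the 9604 other bins (0.4998%). Of the 7, 4 lay between positions 19200001 and 24000000 of chromosome 12, and all 4 had their lowest value in cell 17 of DMSO 2, between -2.27 and -0.56. The widest was chr12:23800001-24000000 with an SD of 1.15 and cell values from -2.27 to 1.37. These 7 were singled out after their values were seen.

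Within embryos, with called gains and losses set to missing, the SD over cells of DMSO 1, 2 and 3 had a median of 0.134, 0.138 and 0.208 over the highest-signal bins, and of 0.140, 0.164 and 0.211 over the other bins. In Aphidicolin embryos highest-signal bins minus other bins gave 0.12, 0.10 and 0.10 in Aphidicolin 1, 2 and 6, and 0.00, 0.00 and -0.03 in Aphidicolin 3, 4 and 5. Over all 6 the mean was 0.05 ± 0.06 (SD, n = 6), with p = 0.25 (exact two-sided sign-flip permutation test; adjusted 0.5), so the difference was within the spread between embryos.

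Copy-number breaks were then placed on the same map. After the profile that the cells share had been removed, gains and losses of at least 10 Mb were called in each cell, and each inner bound was a break. That profile was the mean of the DMSO and the Aphidicolin medians, so the DMSO values that ranked the bins also enter the calls. Breaks of cells of 1 embryo within 2 Mb were joined to 1 site, since sister cells can share a break. The Aphidicolin cells had 491 breaks at 283 sites, of which 40 (14.1%) lay in highest-signal bins, with an exact 95% binomial interval from 10.3% to 18.7% that covers counting only. Of the 2033 positions at which a break could be called, 19.3% were highest-signal bins.

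By embryo 7 of 35 sites lay in highest-signal bins in Aphidicolin 1, 5 of 31 (16.1%) in Aphidicolin 2 and 15 of 100 in Aphidicolin 3. In Aphidicolin 4 the number was 1 of 27 (3.70%), in Aphidicolin 5 it was 5 of 43 (11.6%) and in Aphidicolin 6 it was 7 of 47 (14.9%). The share was below 19.3% in 5 of 6 embryos, by a mean of -5.77 ± 5.53 percentage points (SD, n = 6). Without Aphidicolin 4 the mean was -3.80 points, and with segments of at least 5 Mb called it was -3.18 points. The exact two-sided sign-flip permutation test gave p = 0.0625, adjusted 0.1875, so a lower share of breaks was not established over embryos. With each DMSO embryo given the same weight in the ranking, a planned setting, the mean was -7.00 points. The same exact permutation test then gave p = 0.03125, adjusted 0.09375. Without removal of the shared profile the mean was -6.10 points and the adjusted p of the exact permutation test 0.0469, which passes the threshold. Segments are then called with the profile that ranked the bins still present, so breaks cannot be told from edges of that profile. No conclusion is drawn from that setting. Unplanned settings gave -4.07 points with the top 20% of each chromosome and -4.09 points with the bin that ends at the break. Their exact sign-flip permutation p-values were 0.28125 and 0.1875. In DMSO cells there were 23 breaks at 11 sites, 3 of them in highest-signal bins, too few for a share by embryo.

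The placement of a break was no finer than the 1-Mb windows. When a break was counted wherever a highest-signal bin lay within 1 Mb of it, the difference from the eligible share was 0.24 percentage points with p = 0.906 (exact sign-flip permutation). Around the break positions the share of highest-signal bins differed from that around eligible positions by -4.93 points within 0.2 Mb, by -2.11 points at 2 to 3 Mb and by 0.77 points at 4 to 5 Mb. Of the break sites, 43.7 ± 4.48% (SD, n = 6 embryos) lay within 1 Mb of the edge of a run, and of the eligible positions 40.6%.

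The break share was below the eligible share at both ends of the ranking, which was not tested for the lowest-signal bins. The removed profile held the DMSO values of this ranking, and its part in these shares was not tested. With the ranking cut into 5 groups of 20% from highest to lowest, the embryo means of the break share were 13.6%, 23.3%, 24.9%, 23.9% and 14.4%, and the eligible shares were 19.3%, 19.1%, 20.1%, 20.1% and 21.3%. Both outer groups lay below the eligible share in 5 of 6 embryos. The excess in the highest group minus that in the lowest was 1.21 ± 9.11 percentage points (SD, n = 6; exact two-sided sign-flip permutation p = 0.75, adjusted 0.75). It was 13.4 in Aphidicolin 1 and -9.61 in Aphidicolin 5, so the embryos had no common direction, and the mean changed sign, to -1.23, without Aphidicolin 1.

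**Figure D5:**
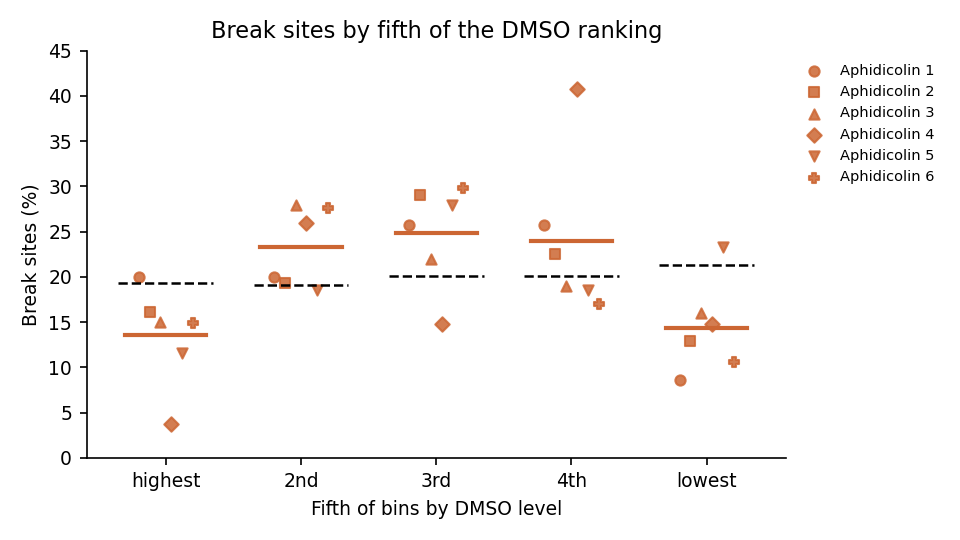
Share of break sites (y axis, percent) in each of 5 equal groups of bins by DMSO level (x axis) for 6 Aphidicolin embryos (symbols); orange bars are embryo means and dashed lines the share of eligible positions. The means are 13.6% in the highest and 14.4% in the lowest group, both below the dashed lines at 19.3% and 21.3%.

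The 40 break sites in highest-signal bins lay on 16 chromosomes. Chromosome 11, with the most highest-signal bins, held 4 of them, and chromosome 2 held 5. Breaks of at least 1 other Aphidicolin embryo lay within 2 Mb of 14 of the 40, where a place can count once for each embryo. The same share over all 283 sites was not determined, so this count is not read as a trait of the highest-signal bins. The site with most cells was chr12:25000001-25200000, with breaks of 14 cells of Aphidicolin 2, 3 and 4 within 2 Mb, followed by chr12:17000001-17200000, with 12 cells of Aphidicolin 2 and 4. All 12 cells are among the 14 of the first site, so these are not separate groups of cells. In DMSO 2 breaks of 7 cells lay at 16000001 and 26000001 of the same chromosome, so both sites were also near breaks of control cells, and the strip between holds the 4 bins of chromosome 12 with an SD above 0.5.

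The next shared sites were chr2:38000001-38200000 with 5 cells of Aphidicolin 3 and 5, and chr17:24000001-24200000 with 4 cells of Aphidicolin 1 and 3. The latter lies at the start of the long run of chromosome 17, and 1 cell of DMSO 3 also had a break there. Sites with 3 cells of 2 embryos included chr2:91000001-91200000, chr2:119000001-119200000, chr2:120000001-120200000 and chr8:107000001-107200000. The pair at 119000001 and 120000001 comes from the same 3 cells, named once for each embryo.

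Coverage by gains and by losses differed between the highest-signal bins and the rest by less than the spread between embryos. The removed profile was the mean of the DMSO and the Aphidicolin medians, so it held the DMSO values that ranked the bins. Its removal draws a level difference between the highest-signal and the other bins towards 0 before any call. Small differences in coverage are thus favoured by the method, and equal coverage is not concluded. In Aphidicolin embryos called gains covered 12.3 ± 3.73% of the highest-signal bins per cell and 12.8 ± 4.40% of the other bins (SD, n = 6), from 7.99% in Aphidicolin 4 to 17.3% in Aphidicolin 6. The difference was -0.44 ± 0.98 percentage points (exact two-sided sign-flip permutation p = 0.375, adjusted 0.5625), and -0.06 without Aphidicolin 3. Losses covered 12.9 ± 4.10% and 13.2 ± 4.61% (SD, n = 6), a difference of -0.27 ± 0.77 points (p = 0.53125 by the same exact permutation test, adjusted 0.6375). Losses below -3 on the log2 scale, which leave close to no copy, covered 1.37% of the highest-signal bins and 1.47% of the others.

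In DMSO embryos gains covered 0.301% and losses 0.244% of the highest-signal bins on average, and 0.178% and 0.177% of the other bins. The gains were all in DMSO 3, at 0.903% of its highest-signal bins, and most of the losses in DMSO 2, at 0.637%. Both differences in Aphidicolin embryos depended on removing the shared profile. Without that step the difference was 11.4 percentage points for gains and -4.37 points for losses, each with an adjusted p of 0.0469 in the exact permutation test. Calls then include the profile, and the bins were chosen as its high end. More gains and fewer losses in them are thus largely set by the choice, and nothing is read from these p-values. With the profile removed, the sign of both differences turned when the top 20% was taken within each chromosome, to 0.29 points for gains and 0.39 points for losses. For losses it also turned, to 0.02 points, without Aphidicolin 3.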

How the data were processed

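The deposited tables hold log2 values per cell, set by the authors relative to the median of that cell, per the file headers; the metadata hold a noise score, deposited by the authors with no scale given, and other columns with names of embryos and collection windows, per the file headers. The genome build was mm9, per the submitters' processing notes; aligner and filters: not given in the sources used here. Bins stand 200 kb apart and were treated as 1-Mb windows, since 100% of the values were whole read numbers within 0.01 reads when bins 5 steps apart shared 1 median. Genes, base composition and sequences were not used here.

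Bins were ranked by their median over 20 DMSO cells. For breaks, a common profile was fitted to 2397 windows by Huber regression and removed, change points were placed with a penalty of 4, and segments of at least 10 Mb above 0.32 or below -0.42 were called, after merging within 0.35. A break lay in the bin that starts at its position. Embryo values were tested by sign flips (64 patterns), and bins with limma 3.58.1 in R 4.3.3; Python 3.11.15 and numpy 2.4.6 did the rest. The steps were tested on simulated data. The members and lists were chosen with earlier results of these data known. Named are the 8 longest and 8 highest runs, the 5 bins on each side of the threshold, the 3 chromosomes at either end, up to 8 shared break sites and the 5 runs at either end of the Aphidicolin level. Alternatives changed the share taken, the ranking, the calls, the break rule and the embryos.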

Additional observations from a re-analysis of the deposited data

Results flagged for a closer look

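Of 24 groups of 4 to 10 values tested for a value far from the rest, 3 were marked, where chance marks about 1 in 20. In Aphidicolin 3 gains covered the highest-signal bins less than the other bins by -2.29 percentage points, while the next embryo was at -0.50. In the same embryo the difference for losses was -1.75 percentage points, and the next was -0.26. This embryo also had the most break sites, 100 of 283. In Aphidicolin 5 the highest-signal bins of cell 59 stood 0.60 above the others on the log2 scale, and the next cell of that embryo was at 0.40.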

How the results depend on the processing

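No paired analysis was possible because the labels link no DMSO embryo with an Aphidicolin embryo. The level in Aphidicolin embryos kept its sign in 15 of 15 alternatives (0.41 to 0.48), the held-out difference in 15 of 15 (-0.18 to -0.10) and the spread among cells in 17 of 17 (0.02 to 0.06), without a change of call. The break share was below the eligible share in 20 of 21 alternatives; it passed the threshold without removal of the shared profile (-6.10 points, adjusted p = 0.0469 by the exact permutation test; range over alternatives 0.0469 to 0.906) and was 0.24 with a highest-signal bin within 1 Mb. Leaving the profile in also gave 11.4 points for gains and -4.37 for losses, both at adjusted p = 0.0469 by the exact permutation test. Calls then follow the profile that ranked the bins, so nothing is read from the break, gain and loss values of that setting. The break difference between the highest and lowest 20% was -2.20 with the top 10% and -2.67 with the top 30%. With 1 embryo left out it ran from -2.60 to 3.38, being -1.23 without Aphidicolin 1 and -2.60 with bins picked without DMSO 2, the gain difference from -0.61 to -0.06, and the loss difference ran from -0.44 to 0.02, the latter (0.0224) without Aphidicolin 3. The top 20% of each chromosome, added after seeing the data, gave 0.29 for gains and 0.39 for losses. The limma count above the cell median was 1196 of 1200 bins with the top 10% (over all bins 36.3%), and 1329 of 2401 with embryo means (over all bins 16.5%). The count of highest-signal bins called lower between treatments ran from 0 to 19 with 1 embryo left out. The 19 (0.791%) came without Aphidicolin 5, where 0.408% of all ranked bins were called lower and 9.7% higher. With 6 embryos a sign-flip test cannot go below 0.03125, and with 5 embryos not below 0.0625. Breaks are placed to within a 1-Mb window at best; the shortest segments called were 10 Mb, or 5 Mb in 1 alternative.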
